A study of Homo sapiens with 12 samples.

Results

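HOXB13 cells were compared with control cells in the absence of added estrogen, in 6 of the 12 RNA sequencing libraries of the series. The members were chosen by their labels alone: the 3 libraries of T47D cells with ectopic HOXB13 and the 3 libraries of control T47D cells, labelled normal and wild type, that received only vehicle. T47D is an established line of human breast cancer epithelium that depends on estrogen and carries the estrogen receptor. All cells were plated for 24 h in phenol-free medium, then kept for 72 h in medium with 10% charcoal-stripped serum, from which steroid hormones are largely removed, and then given ethanol for 24 h. The other 6 libraries, 3 per genotype, had the same handling but received 2 nM estradiol in place of ethanol, and they serve here as a second set of libraries for the same genotypes. The labels name no promoter, no vector for the control cells, and neither a clone nor a pool, so a difference between the lines that arose during their derivation and an effect of HOXB13 cannot be told apart. Whether replicates came from separate cultures is not stated either. A p-value here thus reflects the scatter of the 3 libraries per group, part of which may be technical. Unless said otherwise, that scatter was estimated over all 12 libraries.

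HOXB13 is a homeodomain transcription factor of the 5′ end of the HOXB cluster. It binds AT-rich DNA, often together with a TALE-class cofactor such as a MEIS protein. It is normally expressed in prostate epithelium and distal colon. In breast cancer it has been studied for its ratio to IL17RB, an interleukin receptor gene, as a marker of relapse under tamoxifen, and for its effects on the estrogen receptor. The comparison asks which genes differ with HOXB13 when the receptor has little or no ligand.

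Levels are given as CPM, the reads of a gene relative to the total reads of its library, after TMM normalisation. The 6 libraries held 18897777 to 21385996 counts, with TMM factors of 0.974 to 1.01 and 6.58 to 8.51% mitochondrial reads. All 9 luminal markers of T47D examined, among them KRT8, EPCAM, ESR1 and GATA3, were at 112 to 9130.5 CPM in every one of the 6 libraries. Of 24 marker genes of non-epithelial cells (blood, vessels, stroma, fat), 23 were in the table, and their summed level was 75.7 to 85.3 CPM in control and 69.9 to 71.4 CPM in HOXB13 libraries. Most of it came from COL1A1 and VIM; without them the sums were 10.1 to 14.7 and 6.30 to 12.4 CPM, and the endothelial CDH5 and the erythroid HBB were at 0 in both groups. The full sums were lower in the HOXB13 group without overlap, while the sums without COL1A1 and VIM overlapped between the groups. The part of these markers in the differences described here was not tested. In whole-culture RNA, fewer cells with a transcript and less transcript per cell cannot be told apart. The first principal component of the 6 libraries, with 35.8% of the variance, set both libraries numbered 2 apart from the other 4, and the second, with 19.4%, had all control libraries on one side and all HOXB13 libraries on the other.

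Few genes passed the test. edgeR's quasi-likelihood test was applied to 14799 genes, and a gene was called at a p under 0.05 after Benjamini-Hochberg adjustment; 3 were higher in HOXB13 cells (0.0203% of those tested) and 0 were lower (0%). The 3 genes were HOXB13, BCHE and the clone-named locus RP11-206M11.7. Before adjustment, 559 genes had a p under 0.05, 272 of them lower, where 739.95 would pass if no gene differed. Equally numbered libraries of the 2 genotypes deviated together for number 2 (r = 0.409 across genes) and less so for number 3 (0.235). For number 1 the value, 0.125, was below that of control library 1 with HOXB13 library 3 (0.169). The replicate number was also fitted as a block, that is, as a term that removes what libraries of the same number share. With the block 28 genes were higher (0.189%) and 32 lower (0.216%), and 1421 genes passed unadjusted, 700 of them lower. These 60 genes include the 3 called without the block. With number 2 against the others as the block, 22 were higher and 22 lower, all among the 60. Of the 28, 9 were at least 2-fold higher, and of the 32, 4 were at least 2-fold lower. The HOXB13 libraries all lay above the control libraries for 532 of the tested genes (3.59%) and all below for 524 (3.54%); among the 60 called genes this held for 21 of the 28 higher and 25 of the 32 lower. Over all tested genes the median log2 fold change was 0.001, and 50.3% were positive. The median 95% interval reached 0.33 to either side on the log2 scale without the block and 0.21 with it, over 11993 genes of moderate or high level. An exact permutation of 3 libraries against 3 has 0.1 as its smallest two-sided p, and none was used.

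**Figure D1:**
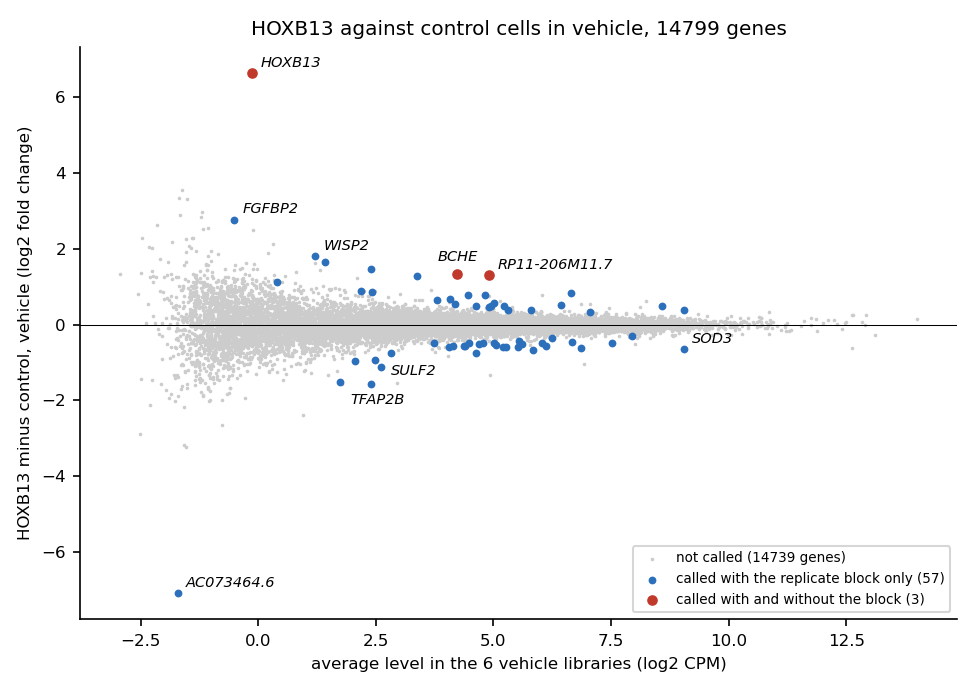
Difference between HOXB13 and control cells in vehicle (log2 fold change, vertical axis) against the average level of each gene in the 6 vehicle libraries (log2 CPM, horizontal axis), with 1 point per tested gene. The 3 red genes passed with and without the replicate block and the 57 blue genes with it only. The blue genes above and below 0 are similar in number, 25 and 32, and most lie within 1 log2 unit of 0. The value of AC073464.6, at 0 counts in all HOXB13 libraries, depends on the prior count of the fit.

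HOXB13 itself defined the genotypes and checks the labels. It had 2, 0 and 1 reads in control libraries 1, 2 and 3 and 112, 106 and 108 in the HOXB13 libraries. All 6 libraries therefore matched their labels. The ratio of the levels was 112, with an exact 95% interval of 38.0 to 546 that covers counting error only, and edgeR's adjusted p was 4.13e-05 (1.78e-08 with the block). The symbol counts do not tell transcripts of the introduced copy from those of the resident gene. Its level of 5.6 ± 0.0452 CPM (SD, n = 3) in the HOXB13 vehicle libraries varied less than that of the other genes that rose. In the HOXB13 libraries with estradiol it was 5.3 ± 0.525 CPM, so the small spread was not seen there.

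BCHE, which encodes butyrylcholinesterase, a secreted enzyme that hydrolyses choline esters, was the gene with the clearest difference after HOXB13. It was at 13.3, 9.87 and 11.7 CPM in control libraries 1, 2 and 3 and at 30.1, 26.4 and 32.3 CPM in HOXB13 libraries 1, 2 and 3. The groups did not overlap, and library 2 was the lowest in each. The mean was 2.54-fold higher, with a log2 fold change of 1.34 ± 0.16 (SE) and an edgeR adjusted p = 0.00542; with the block these were 1.35 ± 0.11 and 5.58e-08. Without control library 3 the unblocked adjusted p was 0.0642, and by edgeR in the 6 vehicle libraries alone it was 0.0639. RP11-206M11.7, a locus the table gives by clone name, was at 17, 20.9 and 19.2 CPM in control and 38.9, 58.3 and 44.8 CPM in HOXB13 libraries. These groups did not overlap either, and here library 2 was the highest in each. Its mean was 2.48-fold higher (edgeR adjusted p = 0.0227, 5.58e-08 with the block). Without control library 1, control library 3 or HOXB13 library 3 its unblocked adjusted p was 0.219, 0.123 and 0.0656. By edgeR in the 6 vehicle libraries alone its unblocked adjusted p was 0.0888.

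Promoter sequence was available for 19 of the 28 higher and 20 of the 32 lower genes, as 33 and 30 windows of 300 bases from 250 before to 50 after a RefSeq transcription start (GRCh38.p14). Neither of 2 motifs given for HOXB13, CCAATAAA and CTCGTAAA, was found on either strand in any of these windows, nor was the full palindromic estrogen response element. They occur in 0.934%, 0.137% and 0.057% of all 35116 windows, so these letters are rare in such windows. The short AT-rich core TTTAT was searched after the other motifs had been seen to be absent. On the other strand it reads ATAAA, which CCAATAAA contains. It was in 36.4% of the windows of higher genes, 26.7% of those of lower genes and 34.9% of all windows. The 250 bases upstream of the start are shown for 2 genes that rose and 1 that fell and that hold the core, with each core in capitals, read 5′ to 3′ on the gene's strand: BCHE at chr3:165837424-165837673 on the minus strand, CLCA2, a regulator of chloride channels, at chr1:86423921-86424170 on the plus strand, and TFAP2B, an AP-2 transcription factor, at chr6:50818621-50818870 on the plus strand. A match is a run of letters, not evidence of binding.
BCHE: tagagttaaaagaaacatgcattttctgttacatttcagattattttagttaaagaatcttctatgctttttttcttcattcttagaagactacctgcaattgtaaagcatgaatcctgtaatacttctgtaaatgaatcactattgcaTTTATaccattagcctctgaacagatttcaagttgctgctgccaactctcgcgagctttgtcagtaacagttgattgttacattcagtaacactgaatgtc
CLCA2: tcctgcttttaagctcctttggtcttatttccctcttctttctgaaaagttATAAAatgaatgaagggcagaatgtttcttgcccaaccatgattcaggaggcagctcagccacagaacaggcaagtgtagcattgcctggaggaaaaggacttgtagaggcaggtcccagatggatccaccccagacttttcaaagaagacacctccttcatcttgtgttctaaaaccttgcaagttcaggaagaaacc
TFAP2B: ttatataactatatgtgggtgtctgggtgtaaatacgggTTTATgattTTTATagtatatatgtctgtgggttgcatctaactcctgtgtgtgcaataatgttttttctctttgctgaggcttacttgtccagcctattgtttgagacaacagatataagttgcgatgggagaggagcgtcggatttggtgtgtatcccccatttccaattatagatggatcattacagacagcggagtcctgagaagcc
The BCHE and CLCA2 stretches hold the core 1 time each, and the TFAP2B stretch holds 2 copies, at bases 40 and 49 of the 250.

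The following genes passed with the block only, unless said otherwise, and their log2 fold changes, standard errors and adjusted p-values come from that edgeR fit. Of 16 called genes that encode secreted or matrix proteins, 7 rose and 9 fell. Here and below, roles were given by hand to the called genes only. The share of each role over all tested genes was not determined. ANGPT1, the angiopoietin ligand of the TIE2 receptor of blood vessels, was at 7.47, 5.08 and 7.31 CPM in control and 17.5, 13.8 and 16.8 CPM in HOXB13 libraries. Every HOXB13 library exceeded every control library, by a wide gap. The log2 fold change was 1.29 ± 0.14 (adjusted p = 1.47e-05, and 0.0521 without the block). WISP2, now CCN5, a matricellular protein known as an estrogen-induced gene of breast cells, was at 1.1, 1.92 and 0.626 CPM and 4.07, 3.96 and 4.92 CPM. The groups did not overlap, although control library 2 was higher than the other 2 controls. WISP2 rose by 1.84 ± 0.27 (adjusted p = 5.87e-04, 0.101 without the block).

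FGFBP2, of the family of fibroblast growth factor binding proteins, was low throughout, at 0.10, 0.144 and 0.47 CPM in control and 2.38, 0.792 and 1.73 CPM in HOXB13 libraries. The lowest HOXB13 library, number 2, was above the highest control, number 3. With so few reads the log2 fold change of 2.74 ± 0.54 was the largest of a gene other than HOXB13 that rose, and also among the least precise (adjusted p = 0.0203). NXPH3, a neurexophilin, was at 1.0, 0.862 and 0.626 CPM against 2.28, 1.43 and 1.73 CPM, without overlap (log2 fold change 1.12 ± 0.25). PGLYRP2, an amidase that cleaves bacterial peptidoglycan, was at 8.67, 17.2 and 15 CPM against 19.6, 25 and 20.6 CPM. Its control library 1 was well below the other 2, and the groups were separate by a small margin (log2 fold change 0.68 ± 0.15). MMRN2, a multimerin of the vessel matrix, overlapped between the groups and had 0.46 ± 0.10.

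Of 6 called genes for receptors or adhesion proteins 2 rose and 4 fell, and of 6 for channels, transporters or their regulators 4 rose and 2 fell. CLCA2 was at 3.31, 2.68 and 3.34 CPM in control and 7.94, 9.88 and 8.0 CPM in HOXB13 libraries. All HOXB13 values were far above every control value. The log2 fold change was 1.46 ± 0.22 (adjusted p = 8.56e-04, 0.0521 without the block). CLSTN2, a calsyntenin of the cadherin superfamily, was at 67.2, 61.8 and 102 CPM in control and 149, 89.3 and 176 CPM in HOXB13 libraries. The groups overlapped, because HOXB13 library 2 lay below control library 3, while each HOXB13 library was above the control library of its number. CLSTN2 rose by 0.82 ± 0.10 with the block (adjusted p = 1.45e-04) and had an adjusted p = 0.806 without it.

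ADRA2A, the alpha-2A adrenergic receptor, was at 0.953, 1.96 and 1.72 CPM in control and 5.51, 2.32 and 6.9 CPM in HOXB13 libraries. HOXB13 library 2 was close to the controls and the other 2 were well above them. Its log2 fold change was 1.62 ± 0.30 (adjusted p = 0.0227). NKAIN1, which interacts with the sodium pump, was at 2.86, 3.83 and 5.32 and 7.84, 4.86 and 9.15 CPM. HOXB13 library 2 lay within the control range. The nucleoside transporter SLC29A1 (0.48 ± 0.10) and the T-type calcium channel CACNA1H (0.55 ± 0.12) rose less, with groups that did not overlap.

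Inside the cell, ACTA2, the smooth muscle actin that marks myoepithelial cells, was at 11.9, 19.6 and 19.6 CPM in control and 26.6, 27 and 33.7 CPM in HOXB13 libraries. The groups did not overlap, with control library 1 the lowest of the 6 (log2 fold change 0.79 ± 0.12, adjusted p = 6.16e-04). PXK, a kinase-like protein of endosomes, was at 17.7, 21.6 and 26.3 CPM against 38.8, 32.3 and 40.7 CPM. Every HOXB13 library was above every control (log2 fold change 0.78 ± 0.11, adjusted p = 4.02e-04). SUSD3, a sushi domain protein known to respond to estrogen, was at 2.71, 2.97 and 4.18 CPM in control and 6.15, 5.86 and 6.33 CPM in HOXB13 libraries, where the 3 values were close together and all above the controls (0.90 ± 0.17, adjusted p = 0.0131). STS, the steroid sulfatase that frees estrone from its sulfate, was at 80.1, 63 and 76.4 CPM against 90.4, 104 and 118 CPM. The groups did not overlap, with the highest control and the lowest HOXB13 library both numbered 1 (0.51 ± 0.10).

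The other genes that rose had log2 fold changes of 0.34 to 0.66. The kinase MST4, now STK26, had a log2 fold change of 0.55, and the guanine nucleotide exchange factor FGD3 had 0.66. The orphan nuclear receptor NR2F1 had 0.47 and the chromatin protein HMGA1 0.34. The hydrolase CMBL had 0.38, CDV3 0.39, the tumour antigen PRAME 0.40, the imprinted PEG10 0.45 and the synaptotagmin SYT12 0.47. HMGA1, PRAME, PEG10 and SYT12 overlapped between the groups, and the others named in this set did not. PEG10 illustrates what the block removed: it was at 362, 248 and 397 CPM in control and 557, 286 and 567 CPM in HOXB13 libraries, with library 2 the lowest in both groups.

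**Figure D2:**
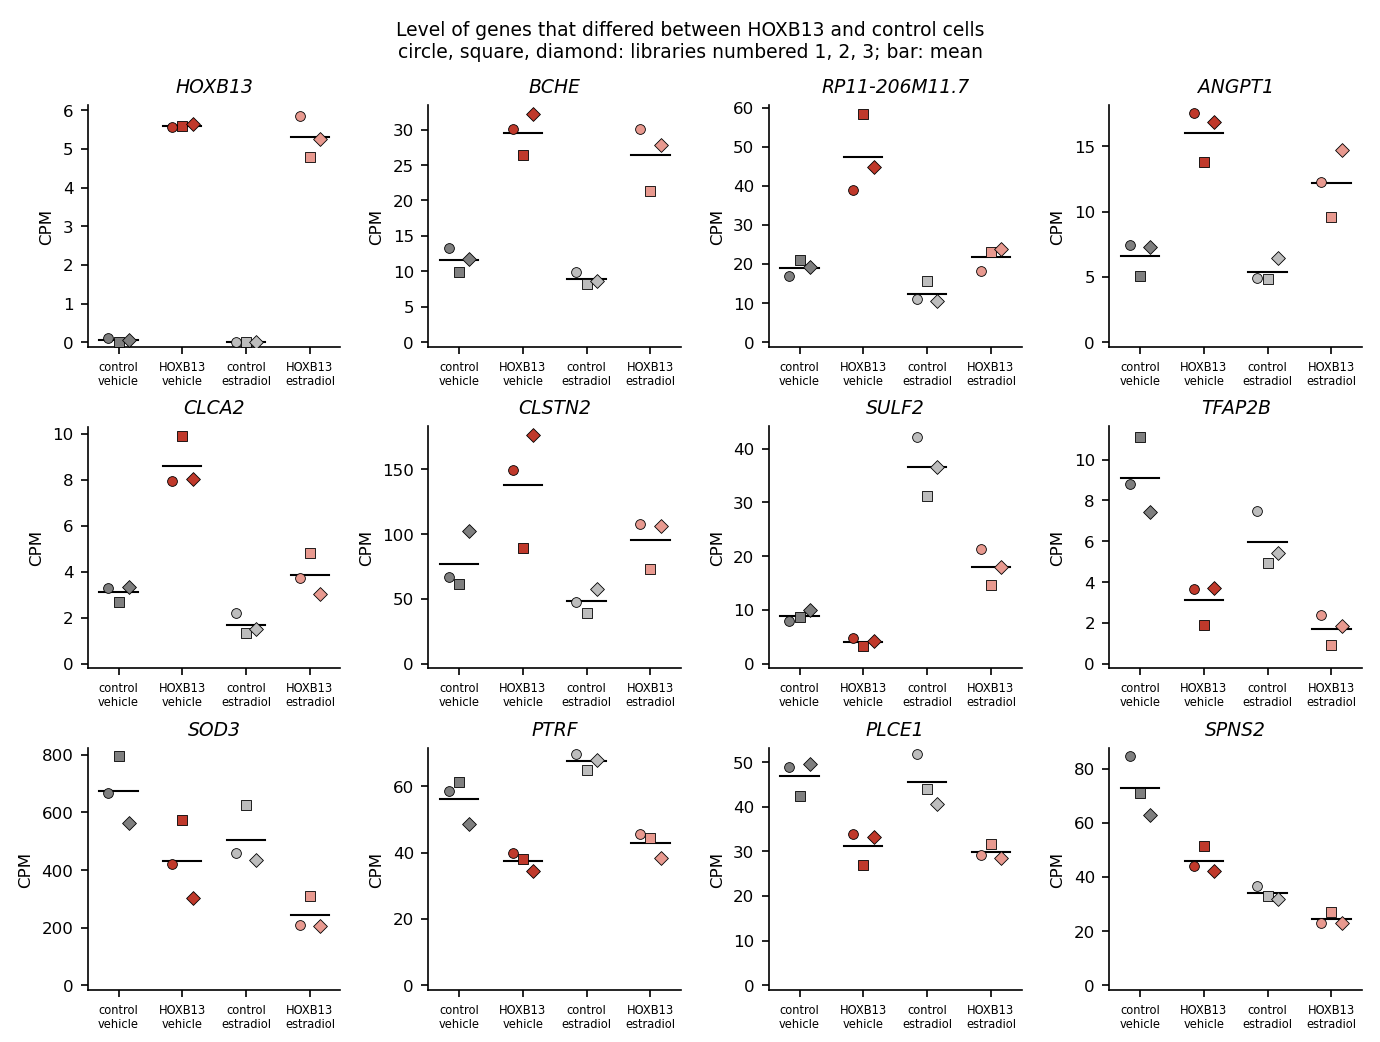
Level (CPM, vertical axis from 0) of 12 genes that differed between HOXB13 and control cells, in the 4 groups of 3 libraries; symbols mark the library number and bars the mean. In vehicle, the groups are apart for 10 of the 12 genes, and those of CLSTN2 and SOD3 overlap while the libraries of each number keep their order.

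Of the genes that fell, SULF2, a sulfatase that removes 6-O-sulfates from heparan sulfate at the cell surface, was at 8.02, 8.67 and 9.97 CPM in control and 4.76, 3.22 and 4.29 CPM in HOXB13 libraries. Every HOXB13 library was below every control, and library 2 was the lowest of the HOXB13 group. The control mean was 2.17 times the HOXB13 mean (log2 fold change −1.13 ± 0.15, adjusted p = 1.96e-04, 0.101 without the block). SOD3, the extracellular superoxide dismutase that binds heparan sulfate, was the most abundant of the genes that fell, at 667, 794 and 565 CPM in control and 419.7, 575 and 301 CPM in HOXB13 libraries. HOXB13 library 2 was slightly above control library 3, so the groups overlapped, but each HOXB13 library was below the control of its number. SOD3 fell with the block (log2 fold change −0.68 ± 0.08, adjusted p = 5.80e-05) and had an adjusted p = 1.0 without it.

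The other 7 secreted or matrix proteins fell by less. TIMP2, an inhibitor of matrix metalloproteinases, was at 264, 281 and 276 CPM in control and 221, 219 and 221 CPM in HOXB13 libraries. Both sets of values were tight and well apart, and the log2 fold change was −0.31 ± 0.07 (adjusted p = 0.0372). Complement component C3 was at 24.3, 27.4 and 24.1 CPM against 18.2, 18 and 15.5 CPM, without overlap (−0.55 ± 0.11). NPNT, an integrin ligand, had a log2 fold change of −0.52, the activin-binding FSTL3 −0.56, the protease ADAMTS15 −0.50, CRISPLD1 −0.47 and METRNL −0.36. The groups of NPNT, FSTL3 and METRNL overlapped, and those of ADAMTS15 and CRISPLD1 did not.

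TFAP2B had the largest decrease after AC073464.6, a low-count locus given further on. This AP-2 family factor of luminal breast cells was at 8.82, 11.1 and 7.41 CPM in control and 3.67, 1.9 and 3.71 CPM in HOXB13 libraries. The groups were far apart, and the pair numbered 2 had the highest control and the lowest HOXB13 value. The control mean was 2.94 times the HOXB13 mean (log2 fold change −1.60 ± 0.25, adjusted p = 0.00127, 0.199 without the block). TFAP2B was the 1 gene of 4 called DNA-binding proteins that fell; HOXB13, NR2F1 and HMGA1 rose.

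Adhesion and receptor genes that fell were NLGN1, PCDH7, TNFRSF12A and FGFR4. NLGN1, a neuroligin, was at 7.47, 3.83 and 5.48 CPM in control and 1.54, 2.59 and 1.78 CPM in HOXB13 libraries, without overlap (−1.47 ± 0.30, adjusted p = 0.0223). PCDH7, a protocadherin, was at 36.3, 30.5 and 29.4 and 14.6, 24.9 and 18.1 CPM, also without overlap (−0.76 ± 0.14). TNFRSF12A, the receptor for the cytokine TWEAK, was at 85, 99 and 72 CPM against 57.4, 72.3 and 43.5 CPM. Its HOXB13 library 2 was marginally above control library 3, so the groups touched, and the log2 fold change was −0.58 ± 0.08 (adjusted p = 4.67e-04). FGFR4, a fibroblast growth factor receptor, overlapped between groups in the same way (−0.48 ± 0.08, adjusted p = 0.00284). Of transport genes, SPNS2, an exporter of sphingosine 1-phosphate, was at 84.5, 71 and 62.7 CPM in control and 43.9, 51.4 and 42.1 CPM in HOXB13 libraries. There was no overlap, and the log2 fold change was −0.67 ± 0.09 (adjusted p = 4.02e-04). The voltage-gated potassium channel KCNC1 was at 49.4, 43.8 and 42.4 CPM against 28.4, 31.7 and 29.7 CPM, again without overlap (−0.60 ± 0.12).

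Of 5 called genes for the cytoskeleton or membrane scaffolds, ACTA2 rose and 4 fell. PTRF, now CAVIN1, which coats caveolae, was at 58.5, 61.4 and 48.5 CPM in control and 39.9, 38.1 and 34.6 CPM in HOXB13 libraries. All HOXB13 libraries were lower than all controls (−0.58 ± 0.08, adjusted p = 4.67e-04, 0.199 without the block). The membrane scaffold STOM was at 131, 113 and 116 CPM against 89.4, 83.5 and 88.3 CPM, without overlap (−0.46 ± 0.08). The actin-associated SYNPO (−0.59) and RAI14 (−0.49) fell, both with groups apart.

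Of the called genes, 7 were sorted as intracellular signalling proteins after the calls were known, and 3 of them were higher and 4 lower. PLCE1, a phospholipase C that responds to RAS proteins, was at 48.9, 42.4 and 49.5 CPM in control and 33.9, 26.9 and 33.1 CPM in HOXB13 libraries. The groups did not overlap (−0.59 ± 0.10, adjusted p = 0.00311). The small GTPase gene ARL11 was lower too (−0.75 ± 0.17), as was PLEKHG4B, a guanine nucleotide exchange factor (−0.48 ± 0.08), whose groups overlapped.

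The remaining genes that fell had log2 fold changes of −0.58 for the retrieval receptor KDELR3, −0.43 for SLFN5, −0.49 for the carboxypeptidase SCPEP1, −0.51 for TMEM106A, −0.47 for SMIM11 and −0.96 for the clone-named CTD-2231H16.1. Their groups did not overlap. AC073464.6, another clone-named locus, had 15, 11 and 25 reads in control libraries 1, 2 and 3 and 0 in every HOXB13 library. Taking 3 counts for the whole HOXB13 group as the floor, it was at least 16.5-fold lower (edgeR adjusted p = 0.0109 with the block, 0.155 without). It also had 16, 9 and 11 reads in the control and 0 in the HOXB13 libraries that received estradiol. With the same floor it was 11.2-fold lower there, and the interval began at 8.65. HOXB13 and AC073464.6 had the largest log2 fold changes of the tested genes, in opposite directions. AC073464.6 rests on few reads, and it was called in 3 of the 6 blocked fits that each left out 1 vehicle library.

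The genes that passed did not depend on 1 library to the same degree. Each of the 6 vehicle libraries was left out in turn with the block kept. ACTA2, ANGPT1, BCHE, CLCA2, CLSTN2, HOXB13, PXK, RP11-206M11.7 and WISP2 were called higher in all 6 fits, and PLCE1, PTRF, SOD3, SPNS2, SULF2, TFAP2B and TNFRSF12A were called lower in all 6. MST4, FGFR4, PLEKHG4B and STOM were called in 5. Of these 4, only FGFR4 did not pass with number 2 against the others as the block (edgeR adjusted p = 0.455). The other 40 were called in 0 to 3 of the 6 fits, among them ADRA2A, FGFBP2, STS, SUSD3, NLGN1 and PCDH7 in 2, C3, NXPH3 and TIMP2 in 1, and ARL11, CACNA1H and RAI14 in 0. The number of genes higher ranged from 11, without HOXB13 library 3, to 37, and the number lower from 11, without HOXB13 library 1, to 29. It was also 15 higher without control library 1, 17 without control library 3 and 13 without HOXB13 library 1, and 19, 18 and 14 lower without control library 1, control library 3 and HOXB13 library 3.

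The libraries that received estradiol are other libraries of the same genotypes. Both contrasts came from 1 fit over all 12 libraries, which share the estimate of spread and the replicate block, so the calls in the 2 sets are not fully separate. In the 6 vehicle libraries alone with the block, 14 of the 28 higher and 18 of the 32 lower genes were called. In the estradiol libraries, without the block, 2 genes were higher (0.0135% of those tested) and 0 lower (0%), with 279 genes lower at an unadjusted p under 0.05. With the block, 21 were higher (0.142%) and 37 lower (0.25%). Of the 60 genes called in vehicle and the 58 called in estradiol with the block, 22 were in both with the same direction, 36.7% of the first and 37.9% of the second. Of the 28 higher genes, 26 were also higher in estradiol by sign and 7 were called there: HOXB13, BCHE, RP11-206M11.7, ANGPT1, CLCA2, CLSTN2 and STS. All 32 lower genes were lower by sign, and 15 were called there, among them TFAP2B, SULF2, SOD3, PTRF, PLCE1, SPNS2, STOM and TIMP2. Over all tested genes, 60.5% had the same sign in both.

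BCHE was at 9.91, 8.15 and 8.58 CPM in the control and 30.1, 21.4 and 27.9 CPM in the HOXB13 libraries with estradiol, a log2 fold change of 1.57 with the block, as for the other estradiol values here. SULF2 was at 42.2, 31.2 and 36.6 and 21.3, 14.6 and 18 CPM there, several-fold above its level in vehicle in both genotypes, with a log2 fold change of −1.03. The lower level in HOXB13 cells thus held at both levels of expression. TFAP2B was at 7.47, 4.95 and 5.43 and 2.39, 0.938 and 1.84 CPM (−1.80), and SOD3 at 459, 625 and 434 and 210.0, 310.4 and 206 CPM (−1.07). SOD3 groups did not overlap with estradiol, as they did in vehicle.

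With the block, the median log2 fold change of the 28 higher genes was 0.73 in vehicle and 0.33 in estradiol, against −0.58 and −0.48 for the 32 lower genes. No test of these medians was made, and BCHE, CLSTN2 and STS had larger values in estradiol than in vehicle. The vehicle values chose the genes, so a smaller value in other libraries follows in part from the choice. ADRA2A was at 20.4, 20.2 and 21.2 CPM in control and 24.3, 18.1 and 23.9 CPM in HOXB13 libraries with estradiol. Both genotypes were thus far above their vehicle levels and overlapped each other. The same was seen for NXPH3, at 19.1, 18.3 and 15.1 and 18.4, 17.7 and 12.9 CPM, and for NKAIN1, at 35, 31 and 34.8 and 39.4, 34 and 34.2 CPM. WISP2 was at 7.42, 9.75 and 5.77 and 11.8, 10.6 and 10.6 CPM, and SUSD3 at 13.9, 13.4 and 12.3 and 17.9, 16.8 and 17.4 CPM, with the HOXB13 libraries still above the controls.

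The difference between the 2 contrasts was tested as an interaction. It called 0 genes without the block and 0 with it (0% each), and 219 and 585 genes had an unadjusted p under 0.05. With the block, the log2 fold change of ADRA2A was −1.54 ± 0.36 (SE) in estradiol minus vehicle, for NXPH3 −1.23 ± 0.29, for WISP2 −1.29 ± 0.34, for SUSD3 −0.50 ± 0.22, for NKAIN1 −0.76 ± 0.23 and for SLC29A1 −0.57 ± 0.14. These 6 were among 13 of the 28 higher genes with an unadjusted p under 0.05 in that fit. Among the 32 lower genes 5 had one: ARL11, CRISPLD1, SCPEP1, SMIM11 and SOD3. Without the block the numbers were 7 and 2. Of these lower genes only SOD3 had the larger decrease in estradiol (−0.39 ± 0.12 with the block). Over all 14799 tested genes the number with the block was 585, where 739.95 would pass if no gene differed. The vehicle values chose the genes and also enter this contrast, so smaller differences in estradiol follow in part from the choice. The call for ADRA2A depended on the setting. It passed by edgeR over all 12 libraries with no filter on low counts (adjusted p = 4.49e-04), without HOXB13 library 2 with the block (0.0109), and with all 4 libraries numbered 2 left out (0.0142, and 0.00494 with the block).

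**Figure D3:**
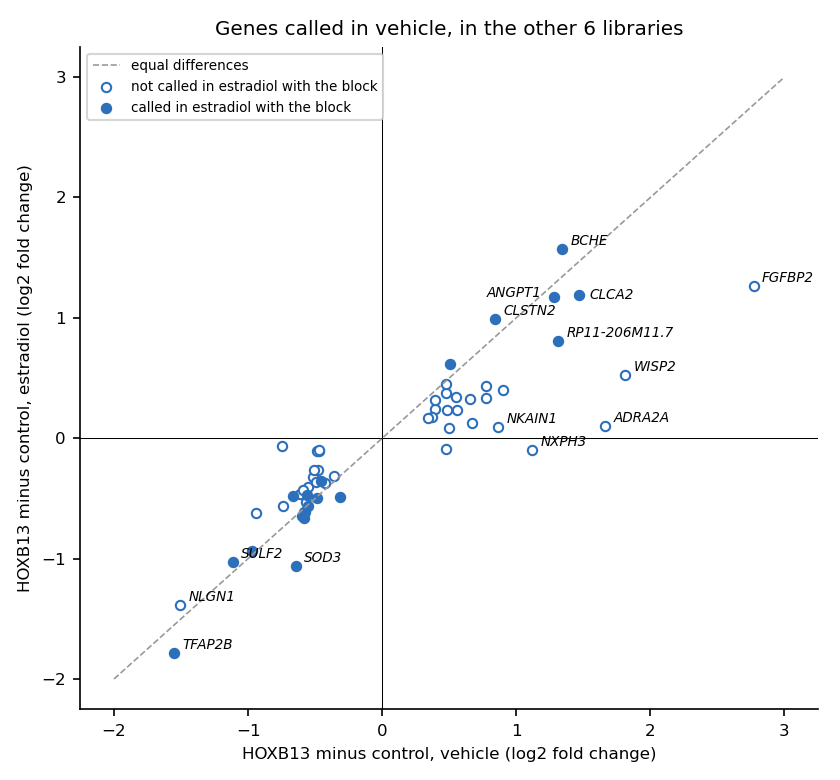
HOXB13 minus control (log2 fold change) in the 6 vehicle libraries (horizontal axis) and in the 6 estradiol libraries (vertical axis) for 58 of the 60 genes called in vehicle, without HOXB13 and AC073464.6; filled points were also called in estradiol with the block. The values are from the fit without the block. WISP2, ADRA2A, NXPH3 and FGFBP2 lie well below the dashed line of equal differences, as SOD3 does to a lesser degree, and the lower genes ARL11, SCPEP1, SMIM11 and CRISPLD1 lie above it, near 0 in estradiol.

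Markers of estrogen action were examined because the cells had no added hormone. ESR1, the estrogen receptor gene, was at 199, 112 and 167 CPM in control and 215, 113 and 188 CPM in HOXB13 libraries, and library 2 was the lowest in both. The log2 fold change was 0.11 ± 0.26 (SE) and the edgeR adjusted p 1.0. GREB1, a cofactor and target of the receptor, was at 165, 111 and 195 and 239, 123 and 277 CPM, with each HOXB13 library above the control of its number and the groups overlapping (0.44 ± 0.28, adjusted p = 1.0, 0.088 with the block). PGR, the progesterone receptor, was at 776, 574 and 778 and 1050.0, 517 and 932 CPM, where HOXB13 was higher in numbers 1 and 3 and lower in number 2 (0.23 ± 0.22). TFF1, a secreted trefoil peptide, was below 1 CPM in every library, at 0, 0.335 and 0.418 and 0.844, 0.475 and 0.732 CPM (1.43 ± 0.60, edgeR adjusted p = 1.0).

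**Figure D4:**
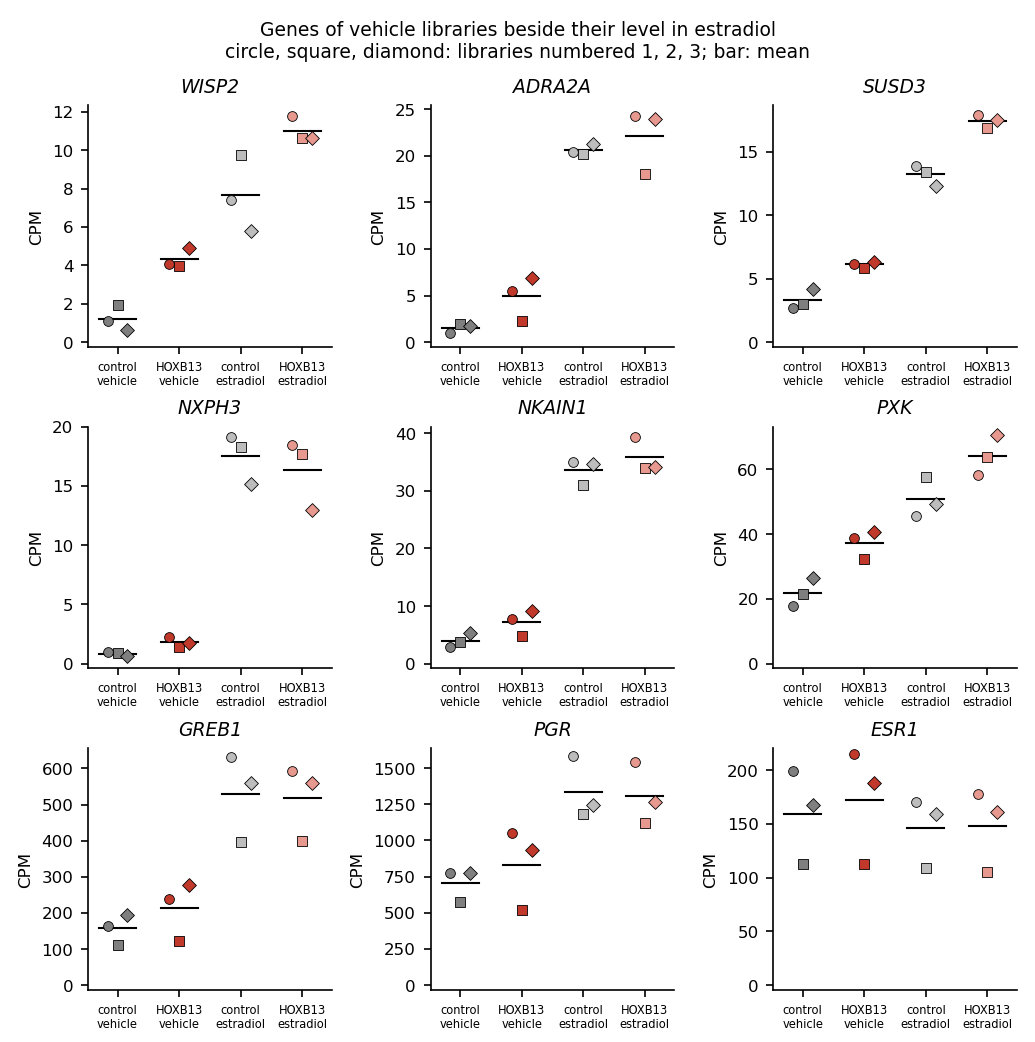
Level (CPM, vertical axis from 0) of 9 genes in the 4 groups of 3 libraries; symbols mark the library number and bars the mean. WISP2, ADRA2A, SUSD3, NXPH3, NKAIN1 and PXK passed in vehicle with the block and are higher in the estradiol libraries of both genotypes; GREB1, PGR and ESR1 did not pass, and library 2 is the lowest of each group for GREB1, PGR and ESR1.

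Of 49 tested genes of a list of estrogen-induced genes, WISP2 and SUSD3 rose with the block, 0 fell and 47 did not pass. Over all tested genes, 0.189% were called higher and 0.216% lower with the block. The median log2 fold change of the list was 0.14 and 37 of the 49 were positive, against 0.001 and 50.3% over all tested genes. Taken by library number, the median was 0.32 for number 1, −0.0039 for number 2 and 0.19 for number 3, so the shift was absent in number 2. CXCL12, a chemokine, shows it: 96.2, 111 and 128 CPM in control and 207, 107 and 179 CPM in HOXB13 libraries (log2 fold change 0.55, edgeR adjusted p = 1.0). None of the 25 estrogen-repressed genes passed (median −0.08); the smallest unadjusted p was that of PIK3IP1, an inhibitor of PI3 kinase, at 17.9, 15.8 and 15.8 and 12.2, 13.5 and 11 CPM.

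Type I interferon response genes showed the same division by number. Of 32 tested members 0 passed, the median was 0.32 and 27 were positive; by number the medians were 0.48, −0.08 and 0.45. OAS1, a sensor of double-stranded RNA, was at 1.6, 3.64 and 3.5 CPM in control and 5.76, 3.96 and 10.8 CPM in HOXB13 libraries (1.23 ± 0.35, edgeR adjusted p = 0.758, 0.0592 with the block). The antiviral GTPase MX1 was at 30.1, 62.7 and 64.8 and 91.4, 54.8 and 126 CPM. For MX1 the groups overlapped through HOXB13 library 2, which was below its control. With all 4 libraries numbered 2 left out and no block, OAS1, CXCL12 and GREB1 passed by edgeR (adjusted p = 0.0314, 0.00282 and 0.0318). That setting leaves fewer libraries per group and removes those in which the shift was absent. The passes thus follow in part from the choice of libraries and are no separate support for the shift.

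Of 34 tested genes of the matrix and of cell surface proteoglycans, SULF2 and SOD3 fell with the block and 32 did not pass, where 0.216% of all tested genes were called lower. The median was −0.08 and 10 of the 34 were positive, against 0.001 and 50.3% over all tested genes. The median by number was −0.08, −0.02 and −0.05. Among 30 luminal identity genes TFAP2B fell and 29 did not pass (median 0.03). FOXA1, a pioneer factor for the estrogen receptor, had a log2 fold change of 0.14 ± 0.11, and the luminal factor GATA3 0.08 ± 0.10. Of 14 basal and myoepithelial genes ACTA2 rose, where with the block 0.189% of all tested genes did, and 13 did not pass (median 0.02). Of 13 genes of mesenchymal transition and invasion TIMP2 fell and 12 did not pass (median −0.01).

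Of 21 tested HOX cluster genes and neighbours, HOXB13 rose, where with the block 0.189% of all tested genes did, and 20 did not pass. The nearest to passing were HOXB5, at 0.752, 0.958 and 0.887 and 1.64, 1.16 and 1.88 CPM, and HOXC13, at 44.7, 45.2 and 52.9 and 39.9, 37.2 and 41.6 CPM. PRAC1 and PRAC2, which lie beside HOXB13, had 0 counts in all 12 libraries. The 10 tested TALE cofactors had a median of −0.10 and 0 passed; MEIS2, with the smallest unadjusted p of them, was at 7.02, 6.23 and 6.26 and 6.3, 3.17 and 5.39 CPM.

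Genes that earlier studies linked to HOXB13 gave no call among 15 tested (median 0.03). IL17RB was at 8.57, 10.9 and 10.3 CPM in control and 6.8, 8.82 and 11.6 CPM in HOXB13 libraries, which overlapped fully (−0.13 ± 0.19). TBX3, a T-box repressor, had 0.00 ± 0.12. CCND1, which encodes cyclin D1, had 0.12 ± 0.14, and MYC had 0.22 ± 0.21. The edgeR adjusted p was 1.0 for each of these 4. CDKN1A, the cell cycle inhibitor p21, was at 81.2, 88.9 and 71 and 57, 79.2 and 61.1 CPM (−0.29 ± 0.13, adjusted p = 0.149 with the block). IL6 had 0 counts in every library.

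Of the other lists, 14 are given here, and each had 0 members called with or without the block. Medians were 0.04 for DNA replication and G1/S (44 genes), 0.07 for mitosis and G2/M (40), 0.02 for the retinoic acid pathway (13), −0.02 for the WNT pathway (21), 0.03 for NF-kB and cytokines (21), −0.01 for cholesterol synthesis (24), 0.02 for fatty acid synthesis (24), 0.09 for the unfolded protein response (28), 0.08 for hypoxia and glycolysis (28) and 0.01 for p53 targets (21). Mitochondrially encoded genes (13) had 0.15, but 0.46, 0.10 and −0.14 by number. Immediate-early and handling-stress genes (29) had −0.06; within them FOS was at 19.5 CPM in control library 2 and at 0.837 to 2.18 CPM in the other 5, and DUSP1, a phosphatase of the same class, at 35.5 CPM and 11 to 18.1 CPM. Non-epithelial markers (10 tested) had −0.11 and markers of epithelia of other origin (3 tested) −0.14. In the first of these RGS5, of pericytes, was at 7.37, 7.28 and 3.24 CPM in control and 1.54, 1.74 and 2.77 CPM in HOXB13 libraries (log2 fold change −1.56, edgeR adjusted p = 1.0).

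**Figure D5:**
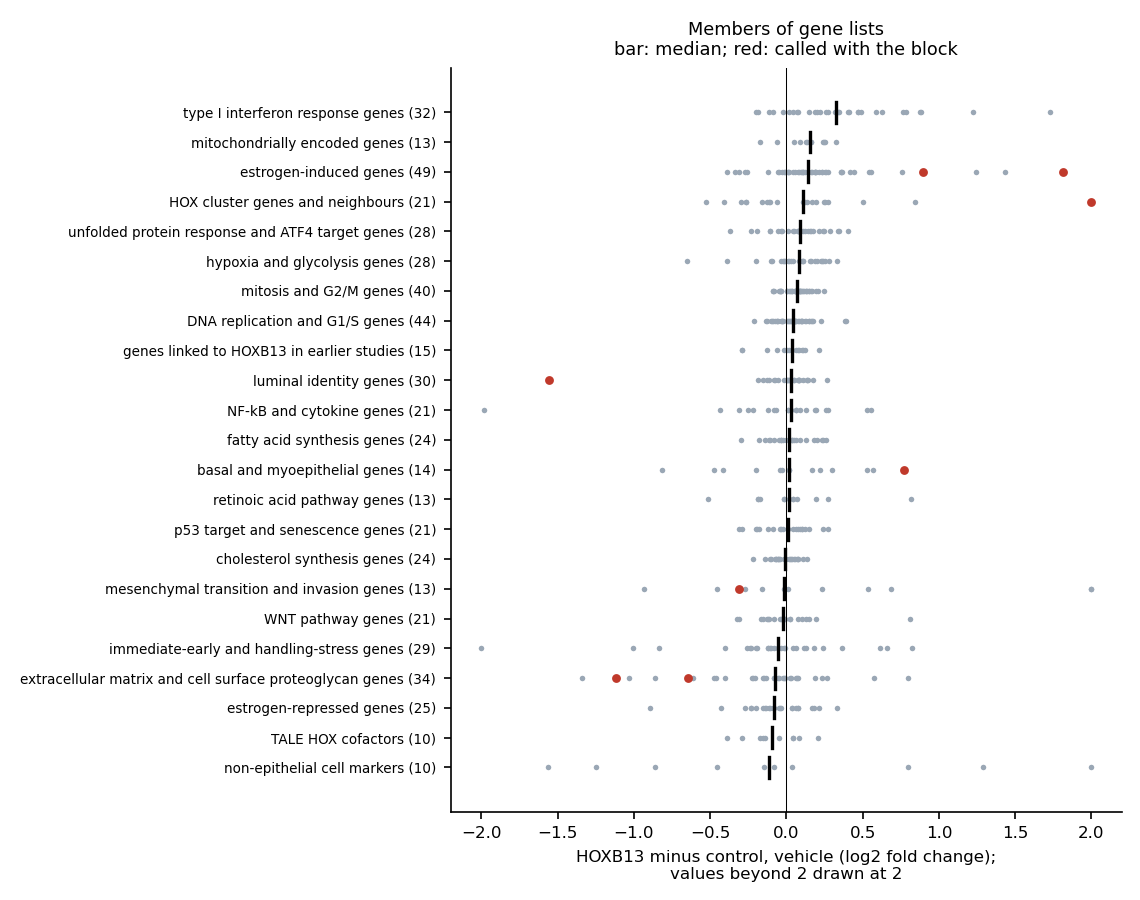
HOXB13 minus control in vehicle (log2 fold change, horizontal axis) for the tested members of 23 gene lists (number in brackets), with a black bar at the median; red points passed with the block. Most medians lie within 0.1 of 0, and the interferon list has the highest at 0.32. HOXB13, WISP2 and ACTA2 are the highest members of lists they belong to, and TFAP2B is the lowest of its list. The basal and myoepithelial list also has a member at −0.82 that did not pass.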

How the data were processed

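RNA was sequenced in 12 libraries of T47D cells, 3 per genotype and treatment. The deposited values are whole-number counts of reads per gene symbol; the tools listed in the submitters' processing notes are FastQC, STAR, Picard and HTSeq, with GRCh37 and hg19 as builds. Their versions, the annotation and its strandedness are not given in the sources consulted. Reads of overlapping or antisense genes and near-identical copies therefore cannot be told apart, and genes are given by symbol without coordinates; promoter sequences are from RefSeq on GRCh38.p14.

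Of 55882 symbols, 32203 had no count in the 6 vehicle libraries. edgeR 4.0.16 (R 4.3.3) kept 14799 genes by filterByExpr (minimum count 10, minimum total 15), scaled by TMM and fitted group means over all 12 libraries with the robust quasi-likelihood test, with Benjamini-Hochberg adjustment over all tested genes and a threshold of 0.05. The test was run first on simulated counts. CPM used TMM-effective library sizes, SE is the log2 fold change divided by the square root of F, and the prior count of log2 CPM was 2. The replicate numbers come from the sample titles. Deviations of equally numbered vehicle libraries from their group means correlated across genes at 0.125, 0.409 and 0.235 (differently numbered −0.354 to 0.169), above the minimum of 0.1, so values with the number as a block are given. A shift of number 2 alone would also give such values, and no label explains the numbers. Depth was 18897777 to 21385996 counts per vehicle library. Intervals of ratios from counts cover counting error only, and fold changes from an assumed floor carry no interval.

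The comparison, gene lists and members were chosen with earlier results of these data known. Genes were named by rule: 14 in any case, up to 15 called genes per direction by size (filled to 5 by smallest unadjusted p where fewer passed), up to 6 more per direction with the block, up to 4 called genes of low level per direction, and per list its called genes or the 1 with the smallest unadjusted p. The other genes called with the block, clone-named loci, CXCL12, MX1, HOXB5, HOXC13, FOS, RGS5, PRAC1 and PRAC2 were chosen after their values were seen, and genes were sorted into roles after the calls. A few genes and 1 list that these rules cover are not reported here. Alternatives were the block, the 6 vehicle libraries alone, DESeq2 1.42.0, limma-voom 3.58.1, RLE factors, 2 other filters, the non-robust test, leaving out all libraries numbered 2, and leaving out each vehicle library. Alternatives to the blocked fit were added after the data were seen.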

Additional observations from a re-analysis of the deposited data

How the results depend on the processing

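Without the block, 3 genes were higher and 0 lower. The counts of higher and lower genes were 28 and 32 with the replicate block, 1 and 0 in the 6 vehicle libraries alone, 17 and 26 in those with the block, 13 and 7 by DESeq2, 5 and 1 by limma-voom, 37 and 25 with no filter on low counts, 5 and 0 without the robust option, 28 and 9 with all 4 libraries numbered 2 left out, and 1 to 6 and 0 with single libraries left out. Against the 28 and 32 of the replicate block, they were 3 and 0 with no replicate block, 17 and 26 in the 6 vehicle libraries, 58 and 51 by DESeq2, 51 and 41 without number 2, and 11 to 37 and 11 to 29 with single libraries left out (15 and 19 without control library 1, 17 and 18 without control library 3, 13 and 11 without HOXB13 library 1, 11 and 14 without HOXB13 library 3). The interaction called 0 genes with and without the block, 4 with no filter on low counts (ADRA2A, RMRP, RN7SK and RNA28S5), 1 without number 2 in either fit, and 0 to 1 with single libraries left out of the blocked fit. Of 845 values for 53 named genes over these settings, 736 kept their direction and side of the threshold, 94 newly passed, 6 no longer passed (BCHE and RP11-206M11.7) and 9 changed sign, all in 4 genes that did not pass. With single libraries left out, ESR1 ranged from −0.10 to 0.33, CCND1 from −0.0074 to 0.26, IL17RB from −0.34 to 0.0403 and TBX3 from −0.0439 to 0.0593, and TBX3 was −0.0526 without number 2. The cause was not tested. With 3 libraries per group, the median 95% interval reached 0.33 (log2) to either side without the block, before any adjustment over genes. Smaller changes would mostly not be detectable, and much larger ones also failed without the block, such as WISP2 at 1.81 and TFAP2B at −1.56. A gene that was not called may therefore still differ.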
